A study of Bos taurus with 16 samples.

Results

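Endothelial cells line the blood vessels, and 7 genes of the endothelium and of angiogenesis were followed in the liver and the skeletal muscle of calves from in vitro and in vivo embryos. A list of 24 genes was drawn up (KDR, FLT1, FLT4, TEK, TIE1, PECAM1, CDH5, ENG, VWF, ESAM, EMCN, CLDN5, ROBO4, NOS3, EGFL7, ERG, SOX17, SOX18, VEGFA, ANGPT1, ANGPT2, NRP1, PLVAP and MMRN2). The members are those that the supplementary gene tables of the study pair with an Ensembl ID of the count file. There were 7 of 24: CDH5 (ENSBTAG00000007421), CLDN5 (ENSBTAG00000022020), PLVAP (ENSBTAG00000005434), VWF (ENSBTAG00000012265), MMRN2 (ENSBTAG00000003510), EGFL7 (ENSBTAG00000030278) and ANGPT1 (ENSBTAG00000014051). They are 7 of the 4181 gene IDs that could be named, out of 27607 in the file, and the other 17 genes were not analysed here. The tables list genes that were selected on these same libraries. CDH5, ANGPT1 and MMRN2 were named by the muscle table that combines methylation and expression, VWF and CLDN5 by the table of expression in liver, PLVAP by the combined table of liver, and EGFL7 by tables of both organs.

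Polyadenylated RNA of the right liver lobe and of the semitendinosus muscle was sequenced in 16 libraries, 1 per organ and calf. The 8 calves were Holstein bulls. IVP calves (n = 4; 3208, 3209, 5833 and 5841) came from oocytes that were aspirated from a mildly stimulated donor, matured, fertilized and cultured in vitro in chemically defined media. MOET calves (n = 4; 3213, 3217, 3218 and 5932) came from embryos flushed from superovulated and inseminated donors. All embryos were transferred fresh to synchronized recipients, and both groups were kept under similar conditions. The age at sampling was 98 to 104 days in 7 calves and 144 days in MOET calf 3213. The 4 IVP calves and MOET calves 3217 and 3218 had the same dam, and 3208, 3209, 3217 and 3218 were full siblings. IVP calves 5833 and 5841 had another sire, and MOET calves 5932 and 3213 had another dam and further sires, so embryo origin and parentage are only partly separate.

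Total deposited counts per library ran from 22758137 to 24667728 for liver and from 23677247 to 25626474 for muscle. The counts of MOET calf 3213 lay nearer to the average of its group than the counting noise of 1 library allows for a separate animal. Its median deviation was 0.0219 log2 units in liver (counting noise 0.034; other calves 0.0992 to 0.38) and 0.0137 in muscle (counting noise 0.0364; other calves 0.122 to 0.189). Calf 3213 was therefore not counted as a replicate, and means ± SD cover 4 IVP calves and 3 MOET calves. The hepatocyte markers (7 named of 17) summed in liver to 17200 to 24500 CPM, that is, counts relative to the size of the library, in IVP calves and to 11900 to 13600 CPM in MOET calves, and in muscle to 2.02 to 38.2 CPM. The muscle fibre markers summed to 130000 to 178000 CPM in muscle and to 3.77 to 7.44 CPM in liver, so each library carried the markers of its labelled organ. CPM are scaled by TMM within each organ.

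Endothelial cells hold each other by adherens junctions, of which VE-cadherin (CDH5) is the defining molecule, and by tight junctions, of which claudin-5 (CLDN5) is the main endothelial claudin. They secrete von Willebrand factor (VWF), which binds platelets, and the matrix proteins MMRN2 and EGFL7, and they carry PLVAP, the protein of the diaphragms of fenestrae and caveolae. Angiopoietin-1 (ANGPT1) is made mainly by the cells around the vessel and acts on the receptor TEK (TIE2) of the endothelium to keep vessels stable. Skeletal muscle has a continuous endothelium, whereas the sinusoids of the liver have open fenestrae and no complete basement membrane. EGFL7 hosts the microRNA MIR126, and overlaps it in the RefSeq annotation (assembly ARS-UCD2.0). ANGPT1 overlaps there with 1 pseudogene, and no other member overlaps a gene. The libraries were not stranded, so reads of overlapping genes cannot be told apart.

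The first comparison was that of IVP with MOET calves within muscle. All 7 members had a higher fitted level in IVP calves, and the median of their log2 fold changes was 0.50 against 0.018 over all 12854 genes tested, of which 52.3% were above 0. None of the 7 passed a false discovery rate (FDR) of 0.05 in edgeR's quasi-likelihood test with age as covariate, which 0.467% of all genes passed. At an unadjusted p below 0.05, 5 of 7 members were higher in IVP calves, and 11.4% of all genes were. Since 4 members were named through a muscle table selected on these libraries, this count and those below are descriptions, not independent evidence. DESeq2 with age called 3 members (CDH5, MMRN2 and ANGPT1) and 4.21% of all genes, and limma-voom called 0 members. With age in the model, calf 3213 alone carries the older age and adds little to the estimate of the group. In bulk tissue, more cells of a type and more RNA per cell cannot be told apart.

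The junction and surface genes came first. CDH5 stood in muscle at 39.5, 34.7, 58.1 and 39.5 CPM in IVP calves 3208, 3209, 5833 and 5841, and at 28.2, 23.3 and 27 CPM in MOET calves 3217, 3218 and 5932. Every IVP calf was above every MOET calf, and calf 3213 was at 25.7 CPM. The means were 42.9 ± 10.4 CPM (SD, n = 4) and 26.2 ± 2.57 CPM (SD, n = 3), with a log2 fold change of 0.72 (SE 0.169, FDR 0.0782).

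CLDN5 stood in muscle at 46.4, 40.6, 67.4 and 40.4 CPM in the IVP calves, in the same order, and at 36.6, 37.8 and 38.6 CPM in the MOET calves. The groups did not overlap, but IVP calves 3209 and 5841 lay close to the highest MOET calf. The log2 fold change of CLDN5 was 0.38 (SE 0.169, FDR 0.241), with group means of 48.7 ± 12.8 (SD, n = 4) and 37.7 ± 0.975 CPM (SD, n = 3).

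PLVAP was low in muscle, at 6.5, 5.24, 8.37 and 5.42 CPM in IVP calves and at 5.29, 4.57 and 5.57 CPM in MOET calves. The groups overlapped. Its log2 fold change in muscle was 0.32 (SE 0.181, FDR 0.346).

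Among the secreted proteins, VWF stood in muscle at 53.3, 50.5, 81.2 and 50 CPM in IVP calves and at 50.9, 52.1 and 44.8 CPM in MOET calves. Only IVP calf 5833 was set apart, and the other 3 IVP calves were within or close to the range of the MOET calves. The log2 fold change of VWF was 0.26 (SE 0.17, FDR 0.412), and without calf 5833 it was 0.0577.

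MMRN2, a matrix protein that binds to CLEC14A on endothelial cells, stood in muscle at 3.84, 3.54, 6.29 and 3.39 CPM in IVP calves and at 2.58, 1.93 and 2.39 CPM in MOET calves. The groups did not overlap, and the lowest IVP calf was above the highest MOET calf. The means were 4.27 ± 1.36 (SD, n = 4) and 2.3 ± 0.336 CPM (SD, n = 3), with a log2 fold change of 0.91 (SE 0.244, FDR 0.102).

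EGFL7, a secreted protein of the vessel wall, stood in muscle at 95.6, 82.2, 137 and 78.8 CPM in IVP calves. MOET calves had 71.1, 68.9 and 71.1 CPM, all below the IVP calves. The log2 fold change of EGFL7 in muscle was 0.50 (SE 0.178, FDR 0.165), with means of 98.5 ± 26.9 (SD, n = 4) and 70.4 ± 1.29 CPM (SD, n = 3).

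The ligand ANGPT1 had the largest fold change of the members in muscle. It stood at 7.4, 4.9, 4.22 and 6.41 CPM in IVP calves and at 2.54, 3.02 and 3.18 CPM in MOET calves. Every IVP calf was above every MOET calf, and the order of the IVP calves was not that of the other members, since calf 5833 was the lowest for ANGPT1 and the highest for the other 6. The means were 5.73 ± 1.44 (SD, n = 4) and 2.91 ± 0.332 CPM (SD, n = 3), with a log2 fold change of 0.97 (SE 0.212, FDR 0.0708).

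In all, the groups did not overlap in muscle for 5 of 7 members, with the IVP calves above, which was so for 10.4% of all genes. Of these 5, all but CLDN5 were named through the muscle table, so this count is a description too. The spread was uneven, since the MOET calves lay close together for CLDN5 and EGFL7 while 1 IVP calf, 5833, was the highest of all for 6 members. The plot of the members by calf shows this distance.

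**Figure D1:**
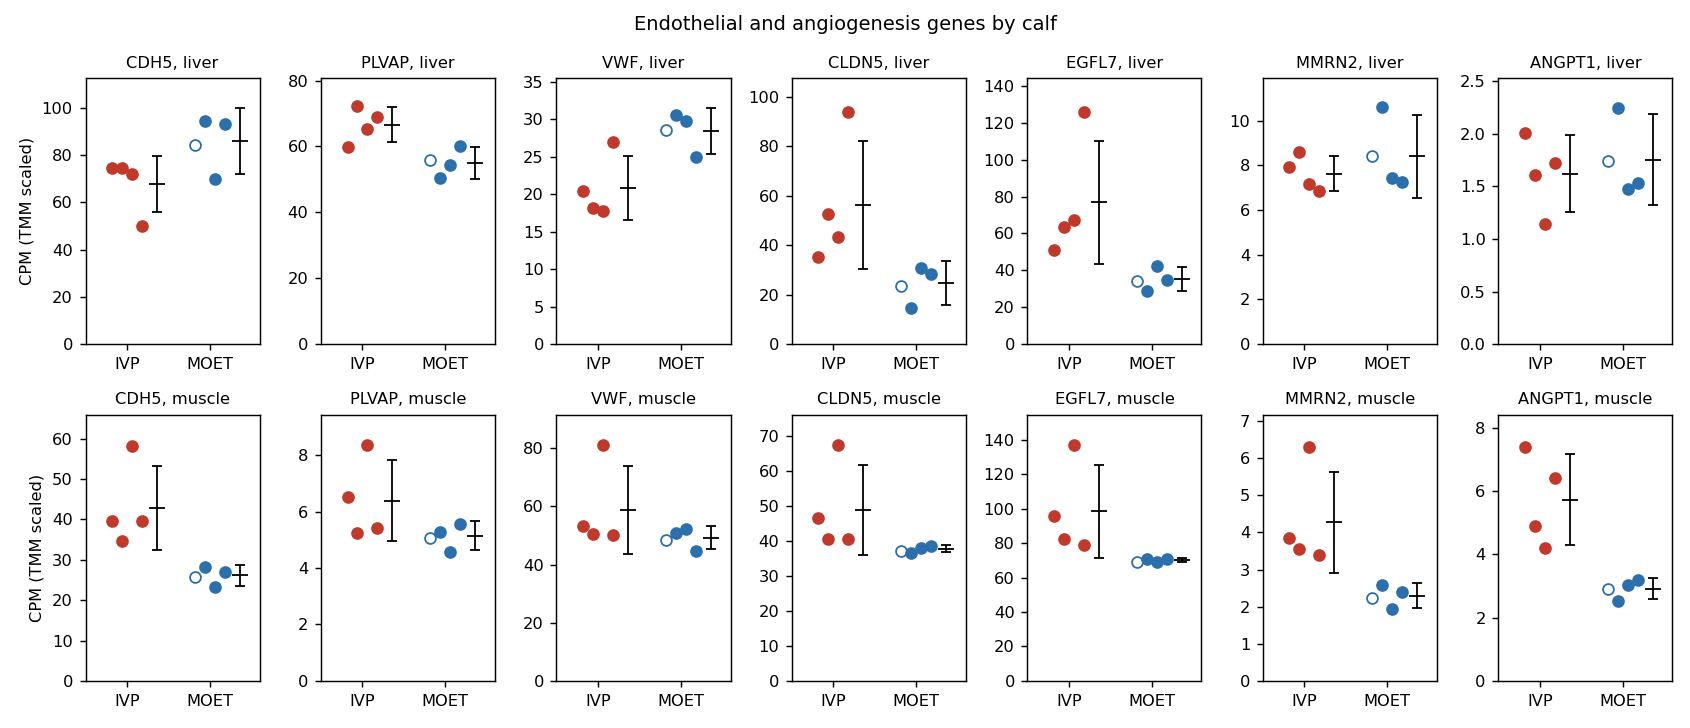
Levels of the 7 members by calf in liver (upper row) and muscle (lower row), in CPM scaled by TMM within each organ, each panel from 0; filled points are calves, the open point is MOET calf 3213, and the bars give the mean ± SD of 4 IVP calves and 3 MOET calves. In muscle the IVP calves lie above the MOET calves for CDH5, CLDN5, EGFL7, MMRN2 and ANGPT1, with 1 IVP calf far above the rest for 6 members, and in liver for CLDN5 and EGFL7 alone.

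In liver the same 7 genes did not share a direction. Of the 7, 3 had a higher and 4 a lower fitted level in IVP calves, and the median of their log2 fold changes was -0.11 against -0.00402 over all 14290 genes tested, of which 49.7% were above 0. None passed the FDR of 0.05 in edgeR's test, which 0.035% of all genes passed, and limma-voom also called 0. DESeq2 with age called 2, CLDN5 and EGFL7, and 11.6% of all genes. At an unadjusted p below 0.05 in edgeR's test, 3 members were higher (CLDN5, EGFL7 and PLVAP) and 1 was lower (VWF) in IVP calves, where 14.8% and 15% of all genes were. All 4 were named through tables of liver selected on these libraries, so these counts are descriptions as well.

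CLDN5 stood in liver at 35.1, 52.8, 43.3 and 93.7 CPM in IVP calves 3208, 3209, 5833 and 5841 and at 14.7, 30.9 and 28.4 CPM in MOET calves 3217, 3218 and 5932. Every IVP calf was above every MOET calf, and calf 5841 was far above the others. The means were 56.2 ± 26 (SD, n = 4) and 24.7 ± 8.73 CPM (SD, n = 3), with a log2 fold change of 1.14 (SE 0.378, FDR 0.127), and of 0.83 without calf 5841.

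EGFL7 was likewise highest in calf 5841 and, among the IVP calves, lowest in 3208, with 51.2, 63.7, 67.1 and 126 CPM in IVP calves and 29, 42.1 and 35 CPM in MOET calves. The groups did not overlap in liver either. The log2 fold change of EGFL7 was 1.08 (SE 0.305, FDR 0.125) and 0.78 without calf 5841, with means of 76.9 ± 33.2 (SD, n = 4) and 35.3 ± 6.56 CPM (SD, n = 3). These were the only 2 members without overlap in liver, and all IVP calves were above all MOET calves for 16.3% of all genes. The summed hepatocyte markers given above also had every IVP calf above every MOET calf. Of these genes 6 of 7 were higher (5 at an unadjusted p below 0.05, median log2 fold change 0.61). Over all genes 49.7% were higher, and 14.8% were higher at that p. The other marker, APOB, was lower at that p, with 641 to 950 CPM in IVP calves and 1240 to 1460 CPM in MOET calves. The part of these markers in the values of CLDN5 and EGFL7 was not tested.

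PLVAP, the diaphragm protein, stood in liver at 59.7, 72.2, 65.4 and 68.9 CPM in IVP calves and at 50.4, 54.5 and 60 CPM in MOET calves. The lowest IVP calf was just below the highest MOET calf. Its log2 fold change was 0.28 (SE 0.12, FDR 0.163), the smallest SE of the 7 members in liver, with means of 66.6 ± 5.32 (SD, n = 4) and 55 ± 4.83 CPM (SD, n = 3).

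VWF had lower fitted values in IVP calves, with 20.4, 18.2, 17.7 and 27 CPM in IVP calves and 30.6, 29.8 and 24.9 CPM in MOET calves. IVP calf 5841 lay within the range of the MOET calves, and the other 3 lay below it. The log2 fold change of VWF in liver was -0.47 (SE 0.171, FDR 0.132).

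CDH5 stood in liver at 74.7, 74.5, 72 and 49.9 CPM in IVP calves and at 94.4, 69.9 and 93.4 CPM in MOET calves. The groups overlapped through MOET calf 3218, and calf 5841, the highest for CLDN5 and EGFL7, was the lowest for CDH5. The log2 fold change of CDH5 was -0.32 (SE 0.177, FDR 0.238).

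MMRN2 and ANGPT1 overlapped between the groups in liver. MMRN2 lay between 6.83 and 8.59 CPM in IVP calves and between 7.25 and 10.6 CPM in MOET calves, with a log2 fold change of -0.14 (SE 0.179, FDR 0.613). ANGPT1 lay between 1.14 and 2.01 CPM in IVP calves and between 1.47 and 2.24 CPM in MOET calves, from 25 to 54 counts in a library over all 8 calves, with a log2 fold change of -0.11 (SE 0.271, FDR 0.792).

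The second question was whether embryo origin had an unlike effect in the 2 organs. It was tested as an interaction in 1 fit over the 16 libraries, and 8.99% of 15237 genes passed the FDR of 0.05, 4.74% with the more positive effect in muscle. Of the 7 members, 5 had a more positive effect in muscle and 2 (CLDN5 and EGFL7) a more positive effect in liver, with a median of 0.70 against 0.0261 over all genes, of which 51.5% were above 0.

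CDH5 was the one member called. Its log2 fold change was 1.01 higher in muscle than in liver (SE 0.259, FDR 0.037), with fitted values on opposite sides of 0 in the organs. With the calf as a block the value was 0.99 (FDR 0.0443). The call was lost without IVP calf 3209 (FDR 0.0688) or 5833 (FDR 0.0631) and without MOET calf 3217 (FDR 0.181), 3218 (FDR 0.0952) or 5932 (FDR 0.139), with the direction kept. CDH5 was named only through the muscle table selected on these libraries, so this call is a description, not independent evidence.

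MMRN2 and ANGPT1 had differences of a like size that missed the threshold, 1.01 (SE 0.312, FDR 0.0542) and 1.05 (SE 0.355, FDR 0.0677). VWF differed by 0.70 (SE 0.257, FDR 0.0879), and by 0.43 without calf 5833. Together with CDH5 these are the 4 members with an unadjusted p below 0.05, against 14.7% of all genes in that direction. CDH5, MMRN2 and ANGPT1 were named only through the muscle table, and VWF only through the table of expression in liver. Both tables were selected on these libraries, so this count is a description as well.

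The other 3 members were not shown to differ between the organs. PLVAP was the member with the most similar effects, with a difference of 0.0131 (SE 0.207, FDR 0.997) and effects of 0.28 in liver and 0.32 in muscle. CLDN5 and EGFL7 had larger effects in liver than in muscle, with differences of -0.79 (SE 0.43, FDR 0.229) and -0.61 (SE 0.369, FDR 0.279), which were -0.405 and -0.23 without calf 5841. All 7 members are drawn in the plot of the effects by organ.

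**Figure D2:**
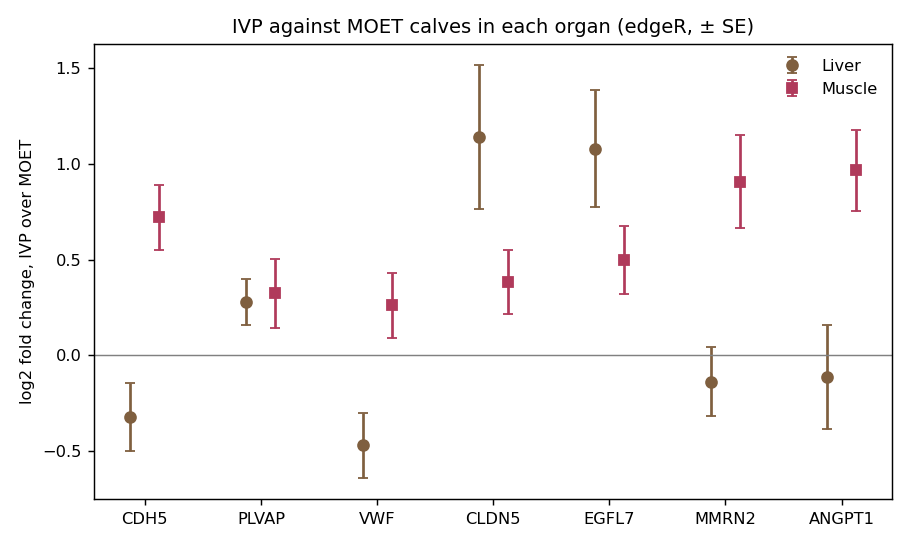
Log2 fold change of IVP over MOET calves for each member, ± SE from edgeR's fit with age in each organ, circles for liver and squares for muscle. The muscle values are all above 0, from 0.26 for VWF to 0.97 for ANGPT1, while in liver CDH5, VWF, MMRN2 and ANGPT1 are below 0.

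The members were not distributed alike over the organs. All 7 passed the FDR of 0.05 between muscle and liver in the fit over the 16 libraries, as did 83% of all genes, 39% with the higher level in muscle and 44% with the higher level in liver. PLVAP was 6.61-fold higher in liver (log2 fold change of muscle over liver -2.73, SE 0.107, FDR 7.41e-13). CDH5 was 1.42-fold higher (FDR 0.00155) and MMRN2 1.6-fold higher (FDR 0.000619) in liver. In muscle, ANGPT1 was 3.88-fold higher (FDR 2.37e-08), VWF 3.51-fold higher (FDR 1.36e-09), EGFL7 2.52-fold higher (FDR 3.88e-06) and CLDN5 1.82-fold higher (FDR 0.00115). These folds depend on the scaling. With library totals in place of TMM the median over all genes moved from -0.0951 to -0.767, and CLDN5 was no longer called (FDR 0.325).

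The members can also be read against each other in 1 library, where no scaling between libraries enters. The count of each member was divided by that of CDH5, as the gene that defines the endothelial junction. In muscle the ratios of 4 members were lower in every IVP calf than in every MOET calf. VWF was at 1.27 to 1.46 counts per CDH5 count in IVP calves and at 1.66 to 2.24 in MOET calves, EGFL7 at 2 to 2.42 and 2.52 to 2.96, CLDN5 at 1.02 to 1.18 and 1.3 to 1.62, and PLVAP at 0.137 to 0.165 and 0.188 to 0.206. This is the pattern of most genes against CDH5, since 62.8% of all genes in muscle had the ratio below in every IVP calf. MMRN2 ran closest to CDH5 in muscle, with overlapping ratios of 0.0859 to 0.108 in IVP calves and 0.0829 to 0.0916 in MOET calves. The ratio of ANGPT1 varied most among the IVP calves, from 0.0726 to 0.188.

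The spread between the IVP calves was narrower on this scale for VWF, at 1.37 ± 0.0801 counts per CDH5 count in muscle (SD, n = 4) beside 58.8 ± 15 CPM (SD, n = 4). Calf 5833, the highest in CPM for 6 members, was not the extreme calf of the ratios of VWF, CLDN5, EGFL7 or PLVAP.

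In liver the ratios went the other way for CLDN5 (0.47 to 1.88 in IVP calves and 0.156 to 0.443 in MOET calves), EGFL7 (0.685 to 2.51 and 0.307 to 0.602) and PLVAP (0.8 to 1.38 and 0.533 to 0.78). All 3 were higher in every IVP calf than in every MOET calf, as were 17% of all genes. Calf 5841 had the highest ratio to CDH5 for all 6 other members in liver. It also had the lowest CDH5 level in liver, 49.9 CPM, which raises each of its ratios. In CPM this calf was the lowest IVP calf for MMRN2 (6.83 CPM). VWF, MMRN2 and ANGPT1 overlapped between the groups.

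**Figure D3:**
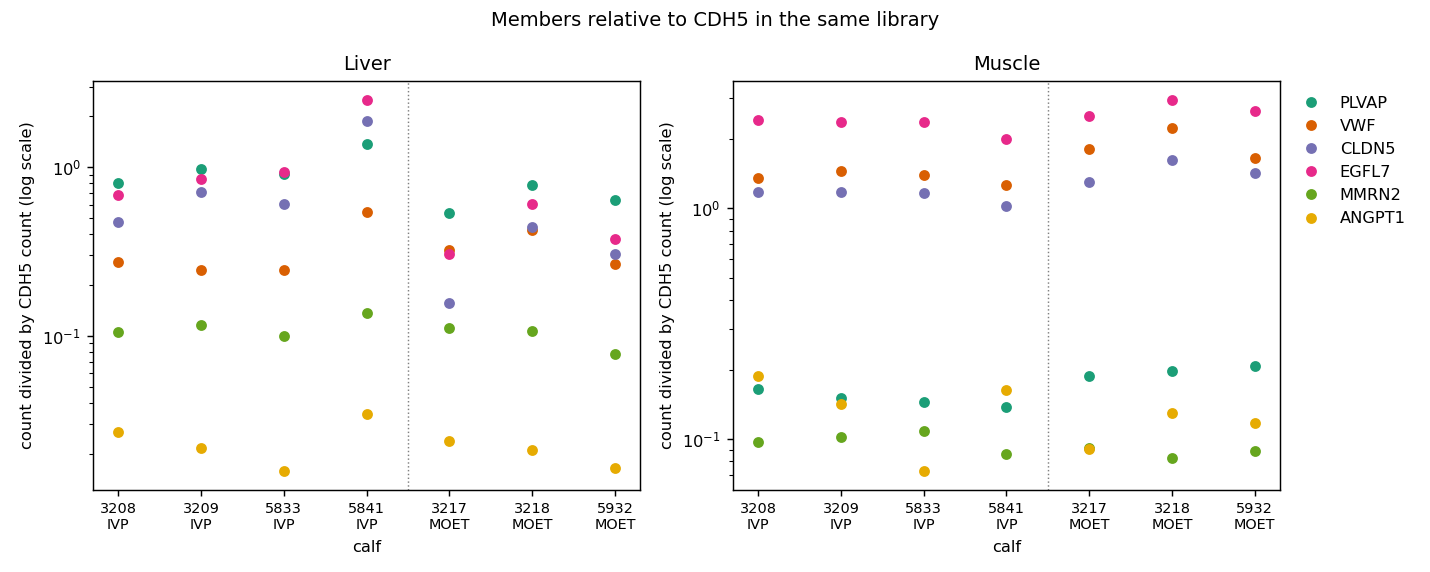
Count of each member divided by the count of CDH5 in the same library, on a log axis, for 4 IVP and 3 MOET calves in liver (left) and muscle (right), 1 point per calf. In muscle PLVAP, VWF, CLDN5 and EGFL7 lie lower in the IVP calves, and in liver PLVAP, CLDN5 and EGFL7 lie higher, with calf 5841 at the top.

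Full siblings give the comparison with the fewest differences in parentage, IVP calves 3208 and 3209 against MOET calves 3217 and 3218. In muscle all 7 members were again above 0, with log2 fold changes of 1.15 for ANGPT1, 0.71 for MMRN2, 0.53 for CDH5, 0.345 for EGFL7, 0.25 for PLVAP, 0.23 for CLDN5 and 0.0126 for VWF. In liver the values were 0.94 for CLDN5, 0.69 for EGFL7, 0.33 for PLVAP, -0.0379 for ANGPT1, -0.125 for MMRN2, -0.14 for CDH5 and -0.645 for VWF, each with the sign it had in all calves. None passed the FDR of 0.05 with 2 calves a group in edgeR's test.

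Each calf was also left out in turn. In muscle all members kept a value above 0 in each of these fits, from 0.531 to 0.811 for CDH5, from 0.642 to 1.01 for MMRN2 and from 0.81 to 1.1 for ANGPT1. The lowest values of 6 members came without calf 5833, which for VWF, CLDN5, EGFL7 and PLVAP moved the value by more than 1.5 times (0.0577, 0.178, 0.287 and 0.157). In liver, CLDN5 (0.83 to 1.33), EGFL7 (0.781 to 1.24), VWF (-0.598 to -0.394) and CDH5 (-0.448 to -0.216) kept their sign, and MMRN2 and ANGPT1 did not.

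**Figure D4:**
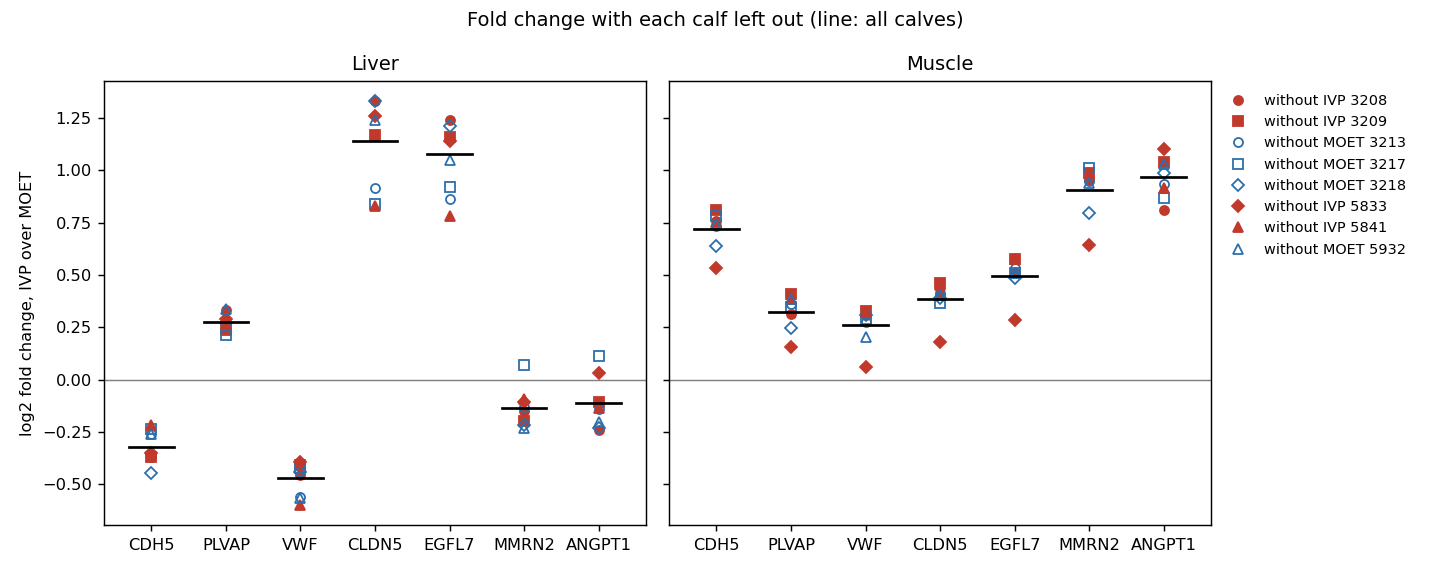
Log2 fold change of IVP over MOET calves for each member in liver (left) and muscle (right) with 1 calf left out, 1 symbol per calf left out, filled for IVP and open for MOET; the bars give the value with all calves. In muscle the lowest points of 6 members are those without IVP calf 5833, and all points stay above 0.

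Genes whose values ran alike over the calves were sought among all named genes of at least 5 CPM, by the root mean square (RMS) difference of the centred log2 CPM over 7 calves. The centring was over both groups, so a shared difference between IVP and MOET calves is part of the likeness. The named genes come from tables selected on these libraries, so the matches are descriptions. In muscle the gene nearest to CLDN5 among 2345 others was EGFL7 (RMS 0.064), and that nearest to MMRN2 was CDH5 (RMS 0.12). For EGFL7 it was FES (RMS 0.06), for VWF ITM2C (RMS 0.059), for CDH5 ARHGAP31 (RMS 0.094) and for ANGPT1 PDPK1 (RMS 0.22). ANGPT1 was the member farthest from each of the other 6 in muscle.

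In liver CLDN5 and EGFL7 were the nearest members to each other (RMS 0.22), and CDH5 was the farthest from both (RMS 1 and 0.92). The nearest of 2923 other named genes were MIF for CLDN5 (RMS 0.16) and AIF1 for EGFL7 (RMS 0.075). For CDH5 it was ADGRL2 (RMS 0.03), for PLVAP SNX11 (RMS 0.052), for VWF FLNA (RMS 0.11), for MMRN2 MEST (RMS 0.07) and for ANGPT1 MOB1B (RMS 0.15). The range over the calves in liver was 2.66 log2 units for CLDN5, the widest of the members, and 0.518 for PLVAP, the narrowest.

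Other genes of the vessel wall were taken from fixed lists, of which only the named part could be measured. In muscle 52.3% of all genes were above 0, and 11.4% were higher and 8.43% lower at an unadjusted p below 0.05. In liver 14.8% were higher and 15% were lower at that p. In the difference 4.74% were called as more positive in muscle. The named genes come from tables selected on these calves, so their counts are read as descriptions. Of 10 named genes of the vascular surface and junctions (of 34 listed), 10 were higher in the muscle of IVP calves and 5 had an unadjusted p below 0.05 (median log2 fold change 0.32). In liver 7 were lower, 5 of them at an unadjusted p below 0.05, and 3 were higher, 1 of them at that p (median -0.35). None was called in either organ by edgeR. In the difference between organs 5 were called, all more positive in muscle: PODXL (2.66, FDR 0.034), a sialomucin of the luminal surface, ITGAV (1.87, FDR 0.0304), an integrin subunit, TFPI (1.52, FDR 0.0482), an inhibitor of coagulation, CAV2 (1.31, FDR 0.0473), a caveolin, and CTNNB1 (0.68, FDR 0.0335), the catenin bound by CDH5.

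Of 22 receptor and signalling genes tested in muscle (of 49 listed), 19 were higher in IVP calves, 11 of them at an unadjusted p below 0.05 (median 0.45). In liver 10 of 23 were higher, 7 of them at that p, and 13 were lower, 7 of them at that p (median -0.0829). No gene of this group was called in either organ. EDNRB (1.6, FDR 0.0371), NRP2 (1.53, FDR 0.0483), PIK3CG (1.5, FDR 0.034) and S1PR3 (1.16, FDR 0.028) were among those called in the difference between organs, each more positive in muscle. They include the endothelin receptor B (EDNRB), a coreceptor of VEGF (NRP2) and a receptor of sphingosine-1-phosphate (S1PR3).

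Among 12 vascular ligands tested in liver (of 42 listed), 10 were lower in IVP calves, 5 of them at an unadjusted p below 0.05 (median -0.41). The other 2 were higher, both at that p. EFNA1 lay between 127 and 153 CPM in IVP calves and between 85.5 and 98.6 CPM in MOET calves (log2 fold change 0.64, FDR 0.125). ANG2 lay between 30.1 and 36.5 and between 18.1 and 25 CPM (0.6, FDR 0.125). In muscle 6 of 9 were higher and 3 lower, 2 each way at that p (median 0.27). SLIT2, a guidance ligand of ROBO receptors, had the largest value in liver, -2.35 (SE 0.452, FDR 0.125), at low levels of 0.0491 to 0.492 CPM in IVP calves and 1.39 to 1.68 CPM in MOET calves. PDGFD was called in the difference between organs (1.82, FDR 0.0428), a gene of at most 2.86 CPM in these 7 calves.

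Of 8 vascular transcription factors (of 24 listed), 6 were higher in either organ. ETS2 rose in the muscle of IVP calves, from 31.2 ± 1.63 (SD, n = 3) to 57.4 ± 11 CPM (SD, n = 4; log2 fold change 0.86, FDR 0.0344). The difference between organs was called for ARNT (1.07, FDR 0.0482), the partner of the hypoxia-inducible factors, ELK3 (0.98, FDR 0.0367) and ETS2 (0.66, FDR 0.0418). Of 7 genes of the basement membrane and matrix (of 28 listed), SPARCL1 rose in muscle from 61.2 ± 4.95 (SD, n = 3) to 107 ± 13.3 CPM (SD, n = 4; log2 fold change 0.81, FDR 0.0272) and stood in liver at -0.47 (FDR 0.125), a difference of 1.24 (FDR 0.0201). NID2, a nidogen, was the other called in the difference (0.91, FDR 0.0367). Both calls in muscle were lost among the full siblings (FDR 0.0786 for ETS2 and 0.15 for SPARCL1) and without MOET calf 3217, 3218 or 5932, and those of ETS2 also without IVP calf 5833 and of SPARCL1 without 3208, 3213 or 5841, with FDR of at most 0.199. Each list gene named for the difference between organs was under the FDR of 0.05 in 8 to 13 of 16 alternatives and had the same sign in all of them. With the calf as a block 6 of these calls were lost, those of CTNNB1 (0.69, FDR 0.0523), ARNT (1.13, FDR 0.0547), NID2 (0.91, FDR 0.0562), CAV2 (1.33, FDR 0.0656), TFPI (1.47, FDR 0.0656) and ETS2 (0.64, FDR 0.0704).

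**Figure D5:**
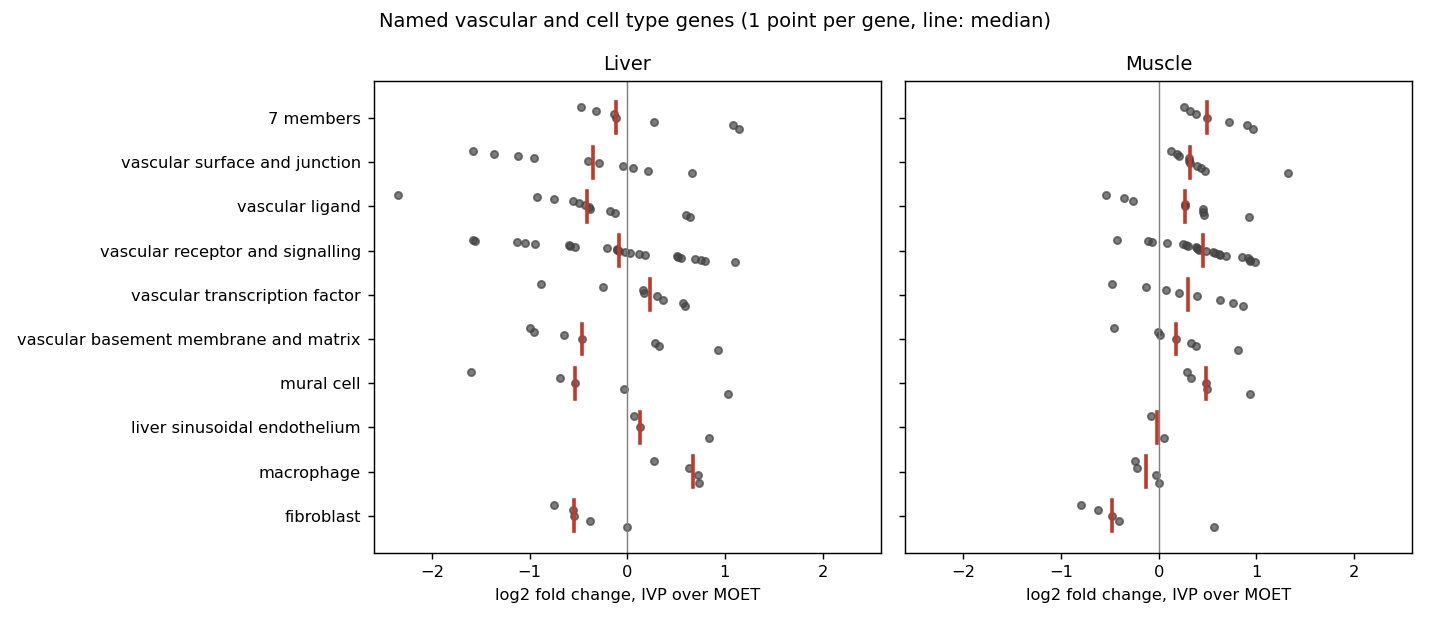
Log2 fold change of IVP over MOET calves in liver (left) and muscle (right), 1 point for each named gene of a list and a line at the median of the list. The members and the vascular and mural lists have their medians above 0 in muscle, from 0.18 to 0.50, and below 0 in liver except for the transcription factors, while fibroblast genes have a median below 0 in both.

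Markers of cells around and beside the endothelium were read beside these values, and none of the mural or fibroblast genes passed the FDR of 0.05 in edgeR's test in either organ. Of the mural cell genes (5 named of 14), 5 of 5 had higher muscle levels in IVP calves, 4 of them at an unadjusted p below 0.05, and 4 of 5 had lower liver levels, 3 of them at an unadjusted p below 0.05. The other gene, ANPEP, was higher in liver at that p (log2 fold change 1.03, FDR 0.125). It lay there between 10.7 and 26.8 CPM in IVP calves and between 9.43 and 10.3 CPM in MOET calves. The summed level of the 5 mural genes in muscle was 57.8 to 74 CPM in IVP calves and 48.6 to 51.5 CPM in MOET calves, and in liver it overlapped, at 33 to 51.6 and 43.8 to 48.6 CPM. CNN1 (1.15, FDR 0.0354), ABCC9 (1.9, FDR 0.0331) and NOTCH3 (0.79, FDR 0.0335) were called in the difference between organs. Of the fibroblast genes (5 named of 10), IVP calves had lower levels of 4 in muscle and of 5 in liver, 4 of them in each organ at an unadjusted p below 0.05, and 1 was higher in muscle at that p. They summed in muscle to 827 to 1170 CPM in IVP calves and 1300 to 1630 CPM in MOET calves, and in liver to 508 to 670 and 805 to 856 CPM. The part of these cells in the members' values was not tested.

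Of the 8 named muscle fibre genes (of 24 listed), 3 had higher and 5 had lower muscle levels in IVP calves, 2 and 1 of them at an unadjusted p below 0.05, and none passed the FDR of 0.05 in edgeR's test. MYH7, the myosin of slow fibres, lay between 5000 and 14700 CPM in IVP calves and between 1860 and 3880 CPM in MOET calves (log2 fold change 1.65, SE 0.402, FDR 0.0846, and 0.75 among the full siblings). MYH2, the myosin of fast oxidative fibres, lay between 11800 and 16700 and between 6860 and 8390 CPM (log2 fold change 0.79, FDR 0.112). TNNC2, the troponin C of fast fibres, lay lower in every IVP calf, between 8800 and 17300 CPM against 19600 and 21400 CPM in MOET calves (log2 fold change -0.60, FDR 0.248). The part of fibre type in the members' values was not tested.

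In liver, 3 of 13 markers of sinusoidal endothelium could be named, STAB1, CLEC4G and CD36, and they summed to 278 to 460 CPM in IVP calves and 236 to 257 CPM in MOET calves. CLEC4G, a lectin of these cells, lay between 137 and 300 CPM in IVP calves and between 103 and 121 CPM in MOET calves (log2 fold change 0.83, SE 0.252, FDR 0.126), without overlap. STAB1 (121 to 143 CPM in IVP calves and 116 to 129 CPM in MOET calves) and CD36 (16.4 to 25.3 and 12.3 to 24 CPM) overlapped between the groups. The macrophage genes C1QA, C1QB, C1QC and CSF1R (4 named of 12) summed to 1560 to 2710 CPM in the liver of IVP calves and 1160 to 1470 CPM in that of MOET calves. In muscle they summed to 19.6 to 55.4 and 27.5 to 37.4 CPM. Of the lymphatic list, PROX1 and RELN were named (of 6), and PROX1, which hepatocytes also express, was called for an effect of embryo origin more positive in muscle than in liver (by 2.83, FDR 0.0264). PROX1 was low in muscle, at 0.469 to 1.71 CPM in IVP calves and 0.335 to 0.449 CPM in MOET calves. Of the platelet list, CLEC1B was named (of 10), at 17.8 to 34.3 CPM in the liver of IVP calves, 15.2 to 17.5 CPM in that of MOET calves and at most 0.0417 CPM in muscle. Of the lymphocyte list, CD74, which macrophages also express, lay in liver at 586 to 1040 CPM in IVP calves and 495 to 580 CPM in MOET calves, and in muscle at 215 to 442 CPM in IVP calves and 200 to 219 CPM in MOET calves. No gene of the red cell and adipocyte lists could be named, and the part of these cells in the members' values was not tested.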

How the data were processed

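The authors cleaned the unstranded paired reads with SOAPnuke, mapped them with STAR 2.7 to bosTau9 and counted them per gene with HTSeq. Per their methods, age was controlled with sva. The deposited values are whole numbers for 27607 Ensembl IDs and were treated as estimated counts, since the authors adjusted them for age. The design had assumed raw counts, and the tests stayed the same. Rounding altered no value, but whether count models suit values adjusted for age was not tested. Age was entered as a covariate on values already adjusted for it. No other columns of values per sample were present (0).

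Low counts were removed per organ by filterByExpr (minimum count 10, minimum total 15) and libraries were scaled by TMM. IVP and MOET calves were compared by the quasi-likelihood test of edgeR 4.0.16 with the age of the calf (days) as covariate, with p-values adjusted over all genes after Benjamini and Hochberg (FDR, threshold 0.05). SE are the log2 fold change divided by the root of F. The difference between organs and the level in muscle against liver came from 1 fit over 16 libraries, with age within organ centred at 103 days. The fold changes of all 4 fits were checked on simulated counts in which 200 genes differed. The simulation had no link between the 2 libraries of a calf and no age adjustment, so it cannot show the error rate in these data. DESeq2 1.42.0, limma-voom (limma 3.58.1), R 4.3.3, Python 3.11.15 and matplotlib 3.10.9 were also used.

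Gene names came from the copies of the study's supplementary tables used here, which are shortened. The members, lists and tests were chosen with earlier results of these data known, and no list was tested as a set. All 7 members were named with values. Of the other lists, genes with an FDR under 0.05, or among the 3 with the largest change in a list, could be named, and CSF1R, STAB1, CD36, C1QC and RELN are named only as parts of a short list. A few genes covered by these rules are not reported here. The liver and the muscle library of a calf come from 1 animal and are thus paired. The correlation of a calf's deviations from its group means in the 2 organs, over 12007 genes, lay between -0.133 and 0.284 and was above 0.1 in 5 of 8 calves. The methylation data were not used here.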

Additional observations from a re-analysis of the deposited data

Results flagged for a closer look

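Among the 14 groups of 4 IVP calves examined (7 members in 2 organs), 3 had 1 calf set far from the others. The measure was the gap to the nearest calf divided by the range of the group, against a limit of 0.829 that chance passes in about 1 of 20 groups. For CDH5 in liver the gap was 0.891 of the range, with calf 5841 low at 49.9 CPM. For VWF in muscle it was 0.894, with calf 5833 high at 81.2 CPM, and for MMRN2 in muscle it was 0.845, with the same calf high at 6.29 CPM. Calf 5833 was also the highest IVP calf in muscle for CDH5, CLDN5, EGFL7 and PLVAP, so these flags are not independent of each other.

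The effect of embryo origin on CDH5 differed between muscle and liver, by 1.01 on the log2 scale (SE 0.259, FDR 0.037 in edgeR's test of the interaction). The sign was kept in each of 16 alternatives, and the FDR ran from 0.0058 to 0.181. Since CDH5 was named only through the muscle table selected on these libraries, this result is a description.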

How the results depend on the processing

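The number of genes called depended strongly on the model and on single calves, while the signs of the members mostly did not. Of the members' values over all alternatives, 409 kept sign and side of the threshold, 36 came to pass it, 6 ceased to pass it and 11 took the other sign. These values include the level in muscle against liver, where every member was called in at least 15 of 16 alternatives. The alternatives reuse the same calves, so the tally is not independent evidence of stability. Causes were not tested.

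In liver, 5 genes and 0 members were called. The counts were 17 genes with no filter on low counts, 1588 genes and 2 members with DESeq2 and age, 2 genes with limma-voom, 2998 genes and 2 members with no age term, 4657 genes and 4 members with DESeq2 and no age term, and 19 genes among full siblings. In the fits of all calves with no age term, calf 3213 entered as a full MOET replicate. With calf 3213 and age both left out, 5 genes and 0 members were called. Leaving out 1 calf gave 1 to 2187 genes and 0 to 2 members, with 2187 genes without calf 3213, 1219 without 5841 and 101 without 3208, and 2 members without 3213 or 5841. All fits with 1 calf left out kept the age term, also those without calf 3213, the one calf of older age.

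In muscle, 60 genes and 0 members were called. The counts were 186 genes and 1 member with no filter, 468 genes and 3 members with DESeq2 and age, 1174 genes and 3 members with no age term, 1619 genes and 4 members with DESeq2 and no age term, and 21 genes among full siblings. With calf 3213 and age both left out, they were 83 genes and 0 members. Leaving out 1 calf gave 6 to 350 genes (350 without 3209, 6 without 3218, 10 without 3217, 19 without 5932, 33 without 5841 and 35 without 3208) and 0 to 2 members (2 without 3209 and 1 without 5833).

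For the difference between organs, 1370 genes (722 more positive in muscle) and 1 member were called. The counts were 2637 genes and 3 members with DESeq2, 4050 genes and 4 members with no age term, and 1878 genes and 2 members with calf 3213 and age both left out. With library totals, an alternative chosen after the data were seen, they were 1027 genes (840 more positive in muscle) and 2 members. A block for the calf, which pairs the 2 libraries of each animal, gave 713 called genes, of which 655 were among the 1370, and altered no member's call. Leaving out 1 calf gave 0 to 2514 genes (0 without 3218 or 5932, 1 without 3217, 43 without 3209, 77 without 5833, 2164 without 3213 and 2514 without 3208) and 0 to 3 members. The level in muscle against liver was called for 12645 genes (5937 higher in muscle), and with library totals for 13021 (3642 higher in muscle) and 6 members.

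Library totals moved the median of all genes to -0.16 in liver, 0.0514 in muscle and 0.246 in the difference. The sign turned for ANGPT1 in liver without 3217 (0.112) or 5833 (0.03), over a range of -0.24 to 0.112, and for MMRN2 in liver without 3217 (0.0694), over -0.231 to 0.0694. The difference of PLVAP between organs was -0.0235 with RLE factors, -0.0224 with DESeq2, -0.0045 with limma-voom and -0.00183 with the block for the calf. With 1 calf left out it lay between -0.152 and 0.135.

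The precision is limited by 3 separate MOET calves, by the low counts of ANGPT1 in liver and by the age adjustment made before deposit. Names were found for 7 of 24 genes, in tables selected on these libraries.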
